A study of Mus musculus with 96 samples.

Results

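A set of 10 transcription factors and regulators of the T lineage, Gata3, Tcf7, Lef1, Bcl11b, Runx1, Ets1, Ikzf1, Tox, Notch1 and Satb1, were followed in single EL4 cells with and without knockdown of CTCF. They were taken by gene symbol from a deposited table of 24057 genes, in which all 10 are listed and all 10 had a value above 0 in at least 1 cell. EL4 is a mouse T-lymphoma line, labelled as strain C57BL/6. Cells were infected with particles encoding GFP and a short hairpin RNA, directed either at luciferase (shLuc, here WT) or at CTCF (shCTCF, here CTCF-KD). The study's methods list more than 1 CTCF hairpin and do not say which culture received which, so hairpin and experiment may not be separable. The WT cells therefore also carried a virus and a hairpin, and all cells came from 1 lymphoma line, not from primary T cells. There were 4 cultures. WT1 and CTCFKD1 formed experiment 1, and WT2 and CTCFKD2 formed experiment 2. The cells of each culture were captured on a Fluidigm C1 circuit of their own, and the authors chose 24 per circuit by quality for sequencing, so culture and circuit cannot be told apart. Cells of 1 culture share their infection and are not replicates, so conditions were compared over 2 cultures against 2.

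T-cell progenitors receive a Notch signal in the thymus, which acts through the receptor NOTCH1 and turns on a set of DNA-binding proteins. TCF1, encoded by Tcf7, and GATA3 come early in this program, BCL11B accompanies commitment to the T lineage, and RUNX1, ETS1 and IKAROS, encoded by Ikzf1, act on T-cell genes together with them. CTCF is a zinc finger protein that binds insulator sites and shapes the loops between enhancers and promoters.

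One WT2 cell with 81 genes was left out, and 95 cells with at least 3000 genes above 0 remained, 24 in WT1, 23 in WT2, 24 in CTCFKD1 and 24 in CTCFKD2. Values were TPM, which are reads per gene divided by gene length and scaled to the same total in each cell. The number of reads behind each value was recovered from the TPM steps, and the median per cell was 247586 in WT1, 230477 in WT2, 234260 in CTCFKD1 and 131098 in CTCFKD2. Median genes with a read per cell numbered 4771 and 4635 in the WT cultures and 6173 and 5656 in the CTCF-KD cultures. With the 94 cells that had at least 80000 reads thinned to that number (1 CTCFKD2 cell was left out) the medians were 4179 and 3963 against 5235 and 5234, so more genes were detected in CTCF-KD cells at equal depth. No molecular identifiers are described for these libraries, so reads are not independent molecules, and the exact intervals on shares of cells given below cover counting error only.

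Ctcf itself, the targeted gene (chr8:105636568-105682922, plus strand), had a mean of 60.3 ± 76.8 TPM in WT1, 37.1 ± 45.5 in WT2, 16 ± 27.4 in CTCFKD1 and 44.9 ± 50.0 in CTCFKD2 (SD over cells). It was lower than in its partner in CTCFKD1, with a difference of -1.85 on the log2(mean TPM + 1) scale, whereas the culture labelled CTCFKD2 was 0.27 above WT2 and lay within the range of the WT cultures. Any direction drawn from that culture is therefore that of a library set labelled as knockdown in which the mean Ctcf level was not lower. The SD over cells exceeded the mean in each culture, and over the cultures Ctcf differed by -0.79 ± 0.66 (SE, adjusted p = 0.815 by limma). Per the study's methods, the populations sequenced had been selected for efficient knockdown by RT-qPCR and Western blotting, measures not analysed here. The study reports reduced CTCF mRNA and protein with each of its CTCF hairpins. The gene Agrp overlaps Ctcf, and whether they shared reads was not tested.

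All 10 T-cell markers (Cd3d, Cd3e, Cd3g, Cd247, Lck, Thy1, Cd2, Cd5, Cd28 and Ptprc) had values above 0 in at least 1 cell. Cd247 was seen in 17 of the 95 cells, Cd5 in 67, Cd2 in 79 and each of the others in 86 or more. Their summed level was 8276 TPM in WT1, 8664 in WT2, 6142 in CTCFKD1 and 6463 in CTCFKD2. Both CTCF-KD sums lay below both WT sums, 7 of the 10 estimates were negative, with a median of -0.26, and 0 were called by limma. The part of this shift in the values of the members was not tested. The B-cell markers Cd79b, Ms4a1, Pax5 and Ebf1, the NK-cell markers Ncr1, Klrb1c, Eomes and Prf1, and the myeloid genes Lyz2 and Cebpa were listed at 0 in all 95 cells. Gzma, also on the NK-cell list, was seen in 6 cells, all of them in CTCF-KD cultures. A higher share of cells with reads in both CTCF-KD cultures was found for 36.2% of the 11980 genes tested. Of the other markers on these lists, Cd79a was seen in 3 cells, Itgam in 5, Csf1r in 2, Spi1 in 1 and Cd68 in 20. The stromal list, led by Pecam1 in 48 cells, summed to 41 and 30.6 TPM in WT and to 16.3 and 16.5 TPM in CTCF-KD.

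The 250 bases before a RefSeq start of 4 members are shown. Bcl11b, Ikzf1 and Lef1 were chosen for shares of cells or spreads that did not overlap between conditions, though no test called them. Tcf7 was added as the member most like Ikzf1 across cells. RefSeq windows of GRCm38.p6 were found for 8 of the 10 symbols, in 18 windows, and none was found for Ets1 and Tox. The sequences are written 5′ to 3′ on the strand of the gene. Capitals mark the matches found there to known motifs, all searched on both strands. The letters searched for part of the CTCF core were CAGNNGGC. For TCF/LEF proteins the search used CTTTGAA and, as a second form, CTTTGAT. The GATA motif was searched as AGATAA, while for RUNX proteins the letters TGTGGT were used. ETS proteins had a first form, ACAGGAAG, and a second form, CCGGAAGT. The letters TGGGAA stood for both IKZF1 and RBPJ, which share them.
Bcl11b, chr12:108003415-108003664, minus strand: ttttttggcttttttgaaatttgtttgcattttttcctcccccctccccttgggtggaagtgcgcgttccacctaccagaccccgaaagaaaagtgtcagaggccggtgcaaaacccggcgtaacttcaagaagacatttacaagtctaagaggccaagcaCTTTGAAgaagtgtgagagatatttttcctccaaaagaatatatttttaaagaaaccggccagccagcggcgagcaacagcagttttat
Tcf7, chr11:52282596-52282845, minus strand: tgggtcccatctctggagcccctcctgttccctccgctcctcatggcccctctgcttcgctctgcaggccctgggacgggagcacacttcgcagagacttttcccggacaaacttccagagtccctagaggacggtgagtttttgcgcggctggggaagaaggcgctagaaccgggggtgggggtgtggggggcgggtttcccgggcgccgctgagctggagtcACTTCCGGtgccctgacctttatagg
Ikzf1, chr11:11689927-11690176, plus strand: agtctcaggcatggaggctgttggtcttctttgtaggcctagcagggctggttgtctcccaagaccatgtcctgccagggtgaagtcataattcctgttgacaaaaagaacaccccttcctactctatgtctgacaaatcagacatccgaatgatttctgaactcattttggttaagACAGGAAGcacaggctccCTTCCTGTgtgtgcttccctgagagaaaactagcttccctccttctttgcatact
Lef1, chr3:131110073-131110322, plus strand: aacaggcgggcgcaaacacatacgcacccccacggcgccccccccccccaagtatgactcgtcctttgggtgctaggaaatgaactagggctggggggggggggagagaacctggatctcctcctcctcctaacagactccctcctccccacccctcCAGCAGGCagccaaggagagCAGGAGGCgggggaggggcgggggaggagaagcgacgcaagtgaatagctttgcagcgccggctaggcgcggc

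The Bcl11b sequence held 1 match to the TCF/LEF letters CTTTGAA, which occur in 5.14% of the 32851 windows searched. Ikzf1 held 2 matches to ACAGGAAG, 1 on each strand, a motif found in 3.58% of windows. Tcf7 held 1 match to CCGGAAGT on the strand opposite to the gene, found in 3.89% of windows. The other Tcf7 window, not printed, held no match to any of the motifs. Lef1 held 2 matches to CAGNNGGC, which is common, at 25.9% of windows. No match to CAGNNGGC lay in the Bcl11b, Tcf7 and Ikzf1 sequences shown, but another Ikzf1 window, not printed, held a match. Over the 18 member windows, 5 held these letters, among them a pair of overlapping Lef1 windows that share the same matches. Among the 18 member windows, AGATAA and TGTGGT each matched in 1 (11.2% and 16.8% of all windows). CTTTGAT matched in 0 (3.73%) and the IKZF1 letters in 5 (25.6%). CTTTGAA matched in 1 member window, ACAGGAAG in 2 and CCGGAAGT in 1. The matches to AGATAA and TGTGGT lay after the start, as did those to the IKZF1 letters except 1 in a Satb1 window. The IKZF1 letters were found in Lef1 and Satb1 windows only, the overlapping Lef1 pair included. These matches describe letters in a window and no binding was measured.

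The members spanned a wide range of levels over all 95 cells. Tcf7 was the highest, at a mean of 2694 ± 1420 TPM (SD, n = 95 cells), followed by Tox at 668 ± 459 and Gata3 at 577 ± 419. Ets1 at 298 ± 296 TPM and Ikzf1 at 288 ± 224 did not differ beyond their spread and neither did Tox and Gata3. Runx1 had 42.2 ± 54.2 TPM, Bcl11b 13.5 ± 48.0 and Lef1 12.4 ± 28.4, and the last pair again lay within each other's spread. Notch1 and Satb1 were close to 0. Tcf7, Tox and Gata3 were detected in every one of the 95 cells, Ikzf1 in 93, Ets1 in 90, Runx1 in 79, Bcl11b in 55, Lef1 in 39, Notch1 in 7 and Satb1 in 1. A cell held a median of 7 of the 10 members in each culture, with a range from 5 to 9. TPM is adjusted for gene length, whereas other differences between genes in capture and counting were not tested.

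**Figure D1:**
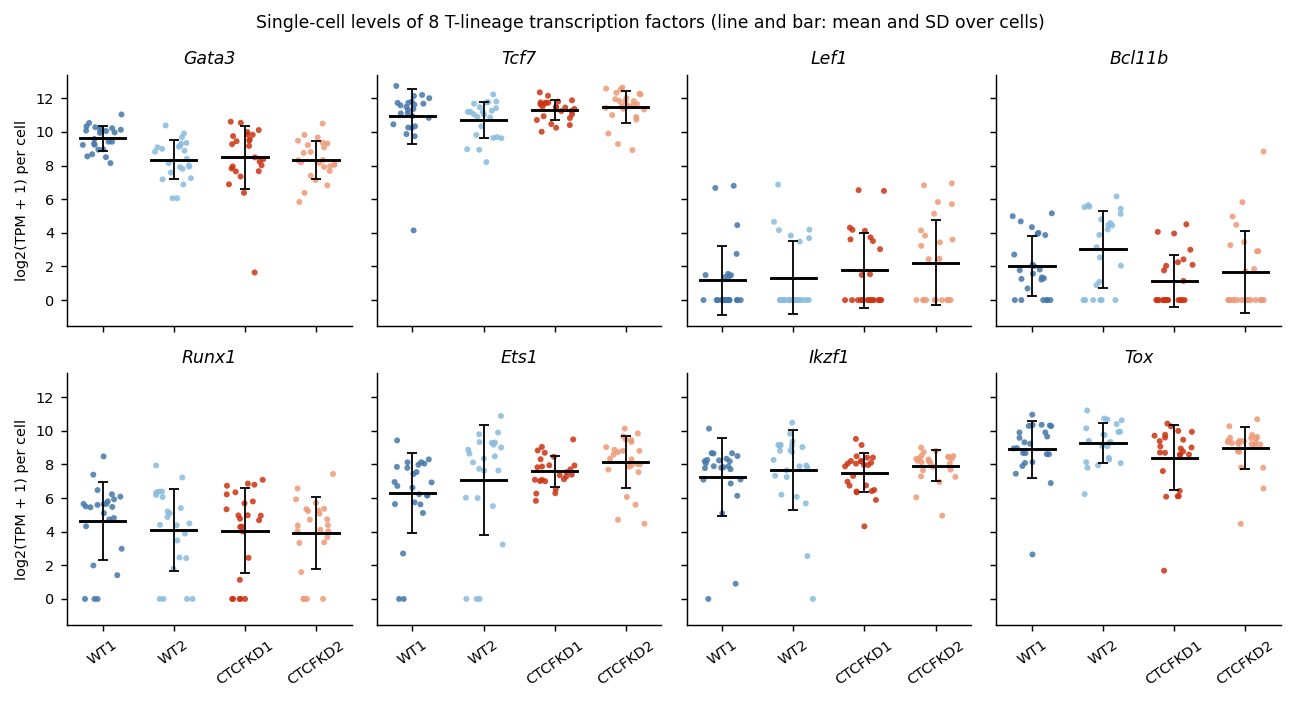
Levels of 8 members in each cell. The vertical axis gives log2(TPM + 1), each point is 1 cell, the horizontal line is the mean and the bar the SD over the cells of a culture. Tcf7, Gata3 and Tox lie above 0 in every cell of all 4 cultures, Lef1 and Bcl11b include many cells at 0, and the cells at or near 0 for Ets1 and Ikzf1 lie in WT1 and WT2.

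Notch1, the receptor that starts the program (chr2:26457903-26516663, minus strand), was nearly absent from EL4 cells. It had 3 reads in WT1, 3 in WT2, 1 in CTCFKD1 and 2 in CTCFKD2, spread over 7 cells, and no cell passed 2.81 TPM. At this depth no difference between cultures was detectable. Satb1, a chromatin organizer of thymocytes (chr17:51736187-51833290, minus strand), had a value in 1 CTCFKD1 cell only, 1.41 TPM, and was listed at 0 elsewhere. A count of 0 of 24 cells allows a share of up to 12.5% of cells with a read and 0 of 23 up to 13%, from 3 counts. Both genes were below the filter on cell-to-cell variation (a mean log2(TPM + 1) above 1), and Satb1 also below the filter for expression (a value above 1 in at least 2 cells).

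Tcf7 (chr11:52252371-52283014, minus strand) encodes TCF1, an HMG-box protein that opens chromatin at T-cell genes. Its mean was 2627 ± 1501 TPM in WT1, 2063 ± 1195 in WT2, 2719 ± 1047 in CTCFKD1 and 3341 ± 1640 in CTCFKD2. Both CTCF-KD cultures lay above both WT cultures, CTCFKD1 only slightly above WT1. The difference was 0.37 ± 0.31 on the log2(mean TPM + 1) scale (SE over 2 cultures against 2, adjusted p = 0.815 by limma), 0.05 in experiment 1 and 0.70 in experiment 2. The lowest cell of CTCFKD1 had 1029 TPM, that of CTCFKD2 483, that of WT2 294 and that of WT1 16.7.

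Lef1 (chr3:131110471-131224356, plus strand) encodes the other TCF/LEF protein of T cells. It averaged 10.3 ± 29.6 TPM in WT1, 9.10 ± 24.4 in WT2, 11.6 ± 25.1 in CTCFKD1 and 18.4 ± 34.1 in CTCFKD2. A single cell supplied 61.1% of its reads in WT1 and 63% in WT2, and 30.8% and 35.3% in the CTCF-KD cultures, so its means rest on very few cells. The CTCF-KD means were above the WT means, with a difference of 0.55 ± 0.78 (SE, adjusted p = 0.899 by limma).

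Tox (chr4:6686353-6991557, minus strand) encodes an HMG-box protein needed for the development of CD4 T cells. Its mean was 697 ± 492 TPM in WT1, 816 ± 580 in WT2, 536 ± 378 in CTCFKD1 and 628 ± 336 in CTCFKD2. Both CTCF-KD cultures lay below both WT cultures, and with all cells the difference was -0.38 in experiment 1 and -0.38 in experiment 2. Without the CTCFKD2 cell of fewest reads, a step added after seeing the data, experiment 2 gave -0.32. Over the cultures, with all cells, the difference was -0.38 ± 0.29 (SE), with an adjusted p of 0.797 by limma and a 95% interval from -1.07 to 0.32.

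Gata3 (chr2:9857078-9890034, minus strand), a zinc finger protein of the T and Th2 lineages, averaged 882 ± 429 TPM in WT1, 426 ± 313 in WT2, 571 ± 438 in CTCFKD1 and 423 ± 320 in CTCFKD2. The WT cultures differed from each other by more than the CTCF-KD cultures did from WT2, and the ranges overlapped. The difference was -0.32 ± 0.42 (SE, adjusted p = 0.886 by limma), -0.63 in experiment 1 and -0.01 in experiment 2. Without the CTCFKD2 cell of fewest reads, left out after seeing the data, experiment 2 gave 0.04. The noncoding genes 4930412O13Rik and 9230102O04Rik overlap Gata3 and also had reads. The use of strand in counting is not given in the sources used here, so reads of the 3 genes may not be fully separated.

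Bcl11b (chr12:107910403-108003602, minus strand) encodes a zinc finger protein that T cells need to commit to and keep their lineage. Its mean was 7.39 ± 10.4 TPM in WT1, 18.6 ± 20.5 in WT2, 3.21 ± 5.86 in CTCFKD1 and 25 ± 92.6 in CTCFKD2. The mean of the culture labelled CTCFKD2 came largely from 1 cell at 455 TPM, which supplied 44.8% of its Bcl11b reads, and without that cell it was 6.24 ± 13.2 TPM (n = 23 cells). Most cells of the 2 CTCF-KD cultures had no Bcl11b read, so the median was 0 TPM in both, against 2.20 TPM in WT1 and 13.7 TPM in WT2. The limma difference was -0.29 ± 1.12 (SE, adjusted p = 0.973), -0.996 in experiment 1 and 0.41 in experiment 2. With the 1 cell left out, a step added after seeing the data, experiment 2 gave -1.43 and the difference was -1.21 ± 0.93 (SE, adjusted p = 0.792 by limma).

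Ikzf1 (chr11:11685003-11772926, plus strand) encodes IKAROS, a zinc finger protein of lymphoid cells. Its mean was 263 ± 219 TPM in WT1, 382 ± 330 in WT2, 235 ± 165 in CTCFKD1 and 277 ± 116 in CTCFKD2, and the ranges overlapped. The difference was -0.31 ± 0.34 (SE, adjusted p = 0.868 by limma). It was 0.26 when log2(TPM + 1) was averaged over cells, a scale on which the median of all genes moved from 0.04 to 0.23.

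Runx1 (chr16:92601466-92826149, minus strand), the DNA-binding subunit of a core-binding factor, averaged 54.4 ± 73.6 TPM in WT1, 43.9 ± 57.7 in WT2, 40.1 ± 41.6 in CTCFKD1 and 30.5 ± 37.4 in CTCFKD2. Both CTCF-KD cultures lay below both WT cultures. The difference was -0.47 ± 0.49 (SE, adjusted p = 0.854 by limma), and -0.43 and -0.51 in the 2 experiments.

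Ets1 (chr9:32636221-32757820, plus strand), an ETS-domain protein of lymphocytes, had 155 ± 150 TPM in WT1, 404 ± 430 in WT2, 231 ± 160 in CTCFKD1 and 406 ± 289 in CTCFKD2. Both cultures of experiment 2 were above both of experiment 1, by more than CTCF-KD differed from WT within either. The difference between conditions was 0.29 ± 0.53 (SE, adjusted p = 0.930 by limma). As a mean of log2(TPM + 1) over cells, which counts the cells at 0 more strongly, it was 1.17.

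**Figure D2:**
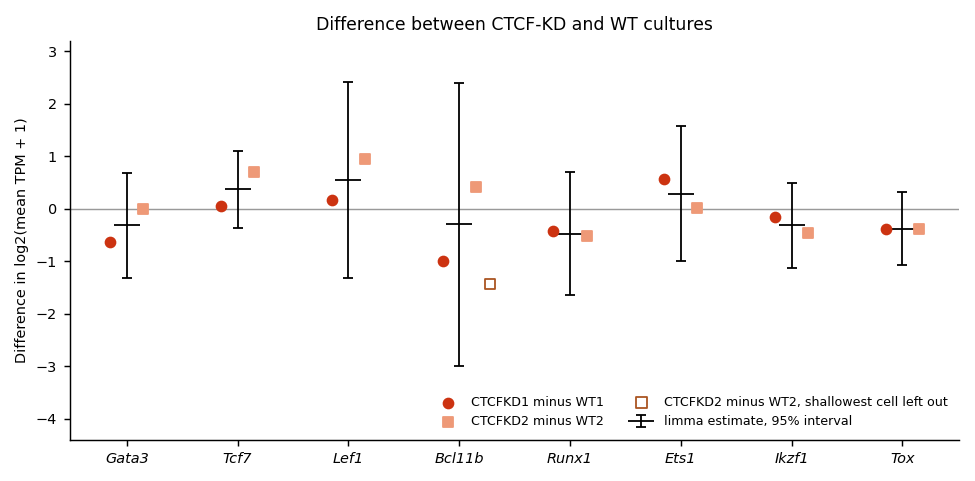
Difference in log2(mean TPM + 1) between CTCF-KD and WT cultures for 8 members. The black dash is the limma estimate with its 95% interval over 4 cultures, filled symbols give each experiment, and the open square gives Bcl11b in experiment 2 without the cell of fewest reads. All 8 intervals include 0.

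No member passed the limma test at an adjusted p under 0.05, and neither did any other gene. Of 11980 genes tested, 0 (0%) were called, with 574 genes higher and 338 lower at an unadjusted p under 0.05 and a smallest adjusted p of 0.585. None of the 9 members tested was among these. Over the 9 members 3 estimates were positive and 6 negative, with a median of -0.29 against 0.04 over all genes. Both CTCF-KD means lay above both WT means for 2 of the 9, Tcf7 and Lef1, where 19.9% of all genes tested did so, and below for 2, Runx1 and Tox, where 16.9% did so. These shares were close to those of all genes.

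Bcl11b was the 1 member of 9 with a lower share of cells in both CTCF-KD cultures than in both WT cultures. Bcl11b had reads in 18 of 24 WT1 cells and 17 of 23 WT2 cells, but in 10 of 24 cells of CTCFKD1 and 10 of 24 of the culture labelled CTCFKD2. These are 75% (exact 95% interval 53.3 to 90.2), 73.9% (51.6 to 89.8), 41.7% (22.1 to 63.4) and 41.7% (22.1 to 63.4). The difference was -33.3 percentage points in experiment 1 and -32.2 in experiment 2, and the exact permutation p over the 4 cultures was 0.333, two-sided, the smallest that 2 cultures against 2 can give. Adjusted over the members, the permutation p was 0.833, and Lef1, Ets1 and Ikzf1 had the same p and adjusted p. At 80000 reads per cell Bcl11b was detected in 13 of 24, 15 of 23, 9 of 24 and 8 of 23 cells. Above 10 TPM it was found in 7 and 12 WT cells and in 3 and 4 CTCF-KD cells. A share lower in both CTCF-KD cultures than in both WT cultures was found in 5.96% of the 11980 genes and in 4.82% after thinning.

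Lef1, Ets1 and Ikzf1 were detected more often in CTCF-KD cells. Lef1 had reads in 9 of 24 and 7 of 23 WT cells and in 11 and 12 of 24 CTCF-KD cells. Ets1 was missing from 2 WT1 and 3 WT2 cells, Ikzf1 from 1 cell of each WT culture, and neither from any CTCF-KD cell. These 3 of 9 members stand beside 36.2% of all genes tested whose share was higher in both CTCF-KD cultures, and 38.9% after thinning, so the direction was a common one in these cells. Runx1 was detected in 21 of 24, 19 of 23, 19 of 24 and 20 of 24 cells, with overlapping ranges. Gata3, Tcf7 and Tox were detected in all cells of all cultures.

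**Figure D3:**
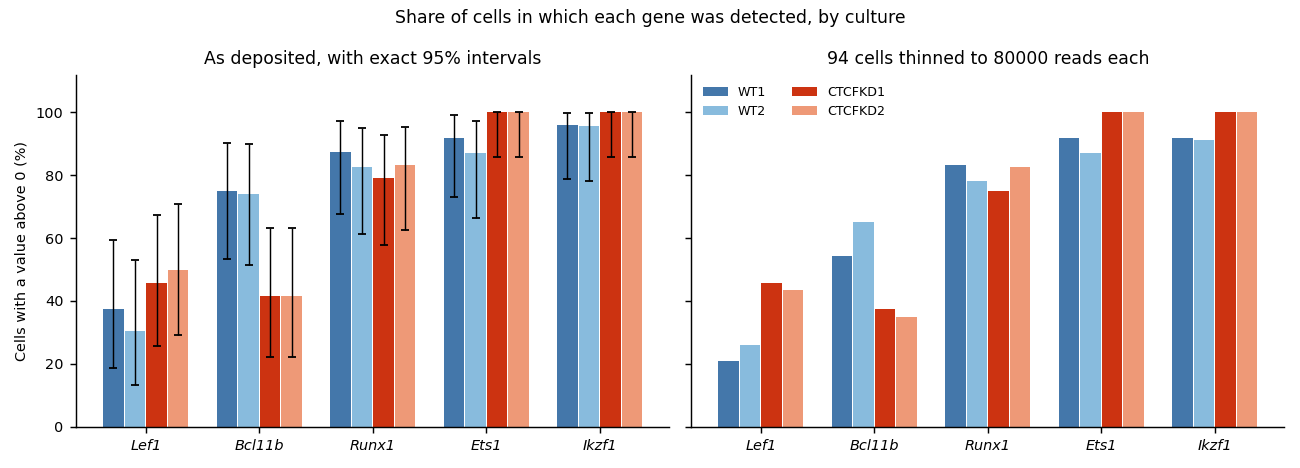
Share of cells with a value above 0 for the 5 members detected in some cells only, among those that passed the filters. Bars are percent of cells per culture, as deposited with exact 95% intervals on the left and after thinning to 80000 reads on the right. Bcl11b stands at 75% and 73.9% in WT and at 41.7% in both CTCF-KD cultures, and it is lower in CTCF-KD on both sides.

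Cell-to-cell variation was measured as the CV, SD divided by mean, of log2(TPM + 1) across the cells of a condition with cultures pooled. The CV difference (CTCF-KD minus WT) averaged -0.279 with an SD of 0.406 over 7843 genes, and a gene was called when it lay more than 1 SD from that mean. By this rule 7.68% of genes increased and 11.3% decreased. Of the 8 members measured, 1, Bcl11b, was called increased and 0 decreased. The CV of Bcl11b was 0.825 in WT (n = 47 cells) and 1.44 in CTCF-KD (n = 48 cells), 2.21 SD from the mean difference and at the 99.4th percentile of all genes. It was 0.866 in WT1 and 1.36 in CTCFKD1, and 0.759 in WT2 and 1.45 in CTCFKD2, and was called in each experiment, where 7.35% and 7.98% of genes increased. The SD of Bcl11b, however, was 2.08 in WT and 2.03 in CTCF-KD, while its mean log2(TPM + 1) was 2.52 and 1.40. By SD in place of CV Bcl11b was not called, while Gata3 and Lef1 were called increased, as were 13.4% of all genes, and Ets1 and Ikzf1 decreased, as were 13.2%. With a mean above 1 required in each condition Bcl11b and Gata3 were called increased, as were 12% of 7126 genes, and 0 members decreased, against 14.6%. When the CV was set against the running median of genes of the same mean, the distance of Bcl11b from that median was -0.344 in WT and -0.064 in CTCF-KD. By the change in this distance Bcl11b was called increased, at 2.04 SD from the mean change, as were 771 of 7843 genes.

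Ets1 and Ikzf1 had a lower SD across cells in both CTCF-KD cultures, a direction shared by many genes. The SD of log2(TPM + 1) of Ets1 was 2.38 in WT1, 3.26 in WT2, 0.92 in CTCFKD1 and 1.53 in CTCFKD2, with no overlap between conditions. Over the cells with a read alone it was 1.44, 1.79, 0.92 and 1.53, which overlapped, so the separation for Ets1 rested on the 2 and 3 WT cells at 0. That of Ikzf1 was 2.31 and 2.38 in WT and 1.17 and 0.91 in CTCF-KD, again without overlap. Over the cells with a read it was 1.75 and 1.73 against 1.17 and 0.91. Those cells still included values as low as 0.87 TPM in WT1 and 4.84 TPM in WT2, against 18.9 TPM in CTCFKD1 and 29.9 TPM in CTCFKD2. How far the Ikzf1 separation rested on such low WT cells was not tested. The SD of Tcf7 was 1.64 and 1.08 in WT and 0.61 and 0.97 in CTCF-KD. Lef1 went the other way, from 2.04 and 2.16 to 2.24 and 2.53. An SD lower in both CTCF-KD cultures was found for 36.9% of all genes and for 3 of the 8 members, and a higher one for 9.36% of genes and 1 member. In spread the members were thus close to all genes.

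The CV of each culture was also tested with limma. Ets1 had a CV of 0.377 in WT1, 0.460 in WT2, 0.121 in CTCFKD1 and 0.188 in CTCFKD2, a difference of -0.264 ± 0.062 (SE, adjusted p = 0.068). Its adjusted p was 0.038 with the replicate block, in which each experiment was paired, and 0.046 without the cell of fewest reads, so that Ets1 fell on either side of the threshold of 0.05. Ikzf1 differed by -0.179 ± 0.051 (SE, adjusted p = 0.098 by limma) and Bcl11b by 0.589 ± 0.224 (SE, adjusted p = 0.165 by limma). Of 7823 genes tested, 0.0256% were called higher and 1.89% lower in CTCF-KD, and no member was among them. The median difference over all genes was -0.224, close to that of Ets1. Gata3, Tcf7, Lef1, Runx1 and Tox had adjusted p from 0.202 to 0.889 by limma.

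**Figure D4:**
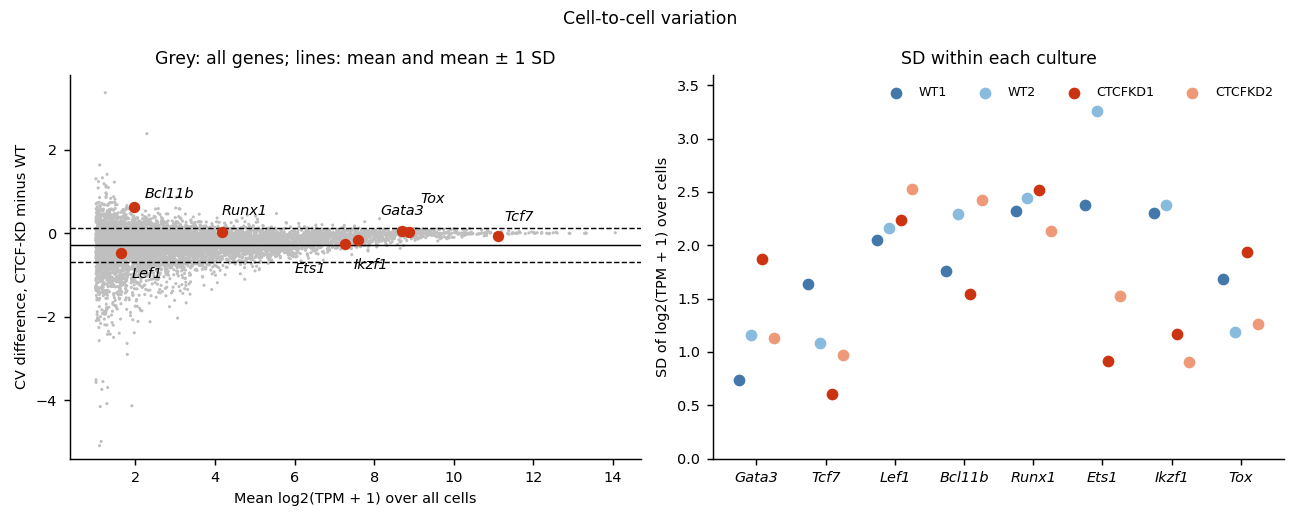
Left, CV difference between pooled CTCF-KD and WT cells against mean log2(TPM + 1), with all 7843 genes in grey, 8 members in red, the solid line at the mean difference of -0.279 and dashed lines 1 SD of 0.406 away. Right, SD of log2(TPM + 1) over the cells of each culture. Bcl11b lies above the upper dashed line, and the 2 CTCF-KD points of Ets1 and of Ikzf1 lie below their WT points.

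A pair of single cells stood apart in several members. The CTCFKD2 cell with 455 TPM of Bcl11b, the highest value of that gene in any cell, had the fewest reads of all cells, 41591, and the fewest genes, 3150. In the same cell Gata3 (56.1 TPM), Tcf7 (483 TPM) and Tox (21.1 TPM) were at their lowest in that culture, and the summed T-cell markers were also lowest, at 428 TPM.  In WT1, the cell with the lowest Tcf7, 16.7 TPM, had 0 reads of Ikzf1 and the highest Lef1 value of the culture, 110 TPM. This cell had 337194 reads and 4756 genes, and its T-cell markers summed to 8615 TPM, within the range of the other cells.

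Most member pairs were weakly related across cells. After each culture was centred, Pearson's r of log2(TPM + 1) over 95 cells ran from -0.24 to 0.50 over the 28 pairs of the 8 members detected in more than 7 cells, with a median of 0.03. It was positive in all 4 cultures for 6 pairs and negative in all 4 for 0. The points share the depth of their cell and the base composition of the library, and r is given as a description. The strongest pair was Tcf7 and Ikzf1, at 0.50, and of 11979 genes each was the one most like the other. Within cultures r was 0.76 in WT1, 0.46 in WT2, 0.15 in CTCFKD1 and -0.03 in CTCFKD2. Without the 2 cells of lowest Tcf7 in each culture it was 0.28, 0.24, 0.16 and -0.29, so the higher values in WT rested largely on the cells lowest in Tcf7. Gata3 and Runx1 had an r of 0.31, and 0.25, 0.37, 0.41 and 0.17 in WT1, WT2, CTCFKD1 and CTCFKD2. The gene most like Gata3 was Lta4h (r = 0.42), that most like Runx1 was Tnfaip8 (0.46), that most like Ets1 was Sept1 (0.45) and that most like Tox was Tagap1 (0.49). The sign did not hold in every culture, at -0.11 for Gata3 and Lta4h in WT2, -0.05 for Ets1 and Sept1 in CTCFKD1 and -0.01 for Tox and Tagap1 in WT2. For Lef1 and Bcl11b the most alike were P3h1 (0.42) and Xylb (0.45), each seen in 5 cells.

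**Figure D5:**
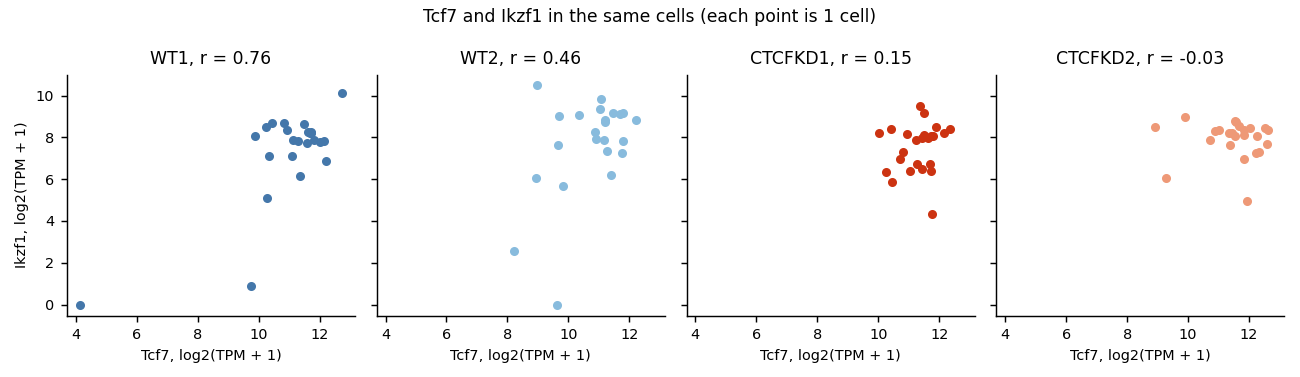
Tcf7 against Ikzf1, each point 1 cell and both axes log2(TPM + 1), with Pearson's r within each culture. The r of 0.76 in WT1 includes 1 cell low in both genes, at the lower left, and CTCFKD1 and CTCFKD2 hold no such cell.

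Relatives and partners of the members were taken from fixed lists. Of 40 family members, cofactors and Notch pathway genes, 30 had a value above 0 and 27 were tested, with 0 called, 12 estimates positive, 15 negative and a median of -0.06. Ctnnb1, the β-catenin partner of TCF1 and LEF1, had the highest statistic, at 49.1 and 52.9 TPM in WT1 and WT2 and at 98.1 and 98.9 TPM in CTCFKD1 and CTCFKD2, a difference of 0.94 ± 0.39 (SE, adjusted p = 0.656 by limma). Hes1, a Notch target, was next, at 0.71 and 1.40 TPM in WT and 7.83 and 2.07 TPM in CTCF-KD, in 16 cells in all. The lowest were Ikzf2, which encodes HELIOS, at 383 and 512 against 262 and 317 TPM, and Runx3, at 49.7 and 58.6 against 30.1 and 28.2 TPM, each lower in both CTCF-KD cultures with adjusted p of 0.716 and 0.744 by limma. Of the 9 groups within this list, all 5 Ets relatives tested had negative estimates, but the gene at their median of -0.29, Ets2, was at 1.33 in experiment 1 and -1.91 in experiment 2.

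Of the 12 Notch pathway genes 8 were above 0 and 4, Notch3, Hey1, Dtx1 and Nrarp, were listed at 0. Notch2, named after its values were seen, had reads in all 95 cells, at 30.7, 33.7, 43.2 and 27.1 TPM in WT1, WT2, CTCFKD1 and CTCFKD2, beside Notch1 in 7 cells. Rbpj, the DNA-binding partner of the Notch receptors, had 14.1, 18.9, 8.81 and 13.3 TPM. Bcl11a, Gata1, Gata2 and Tle1 were at 0, and Bcl11b was thus the one BCL11 gene and Gata3 the one GATA gene among those listed with reads in these cells.

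Of 32 other lymphoid regulators 24 were above 0 and 22 were tested, with 0 called, 10 positive, 12 negative and a median of -0.07. Foxp3, the regulator of regulatory T cells, had 0.05 and 0.22 TPM in WT and 7.95 and 5.68 TPM in CTCF-KD, in 1, 1, 5 and 3 cells. Tbx21 was listed at 0 in both WT cultures and seen in 2 and 1 CTCF-KD cells. Shares of cells higher in both CTCF-KD cultures, as for Foxp3, Tbx21 and Ccr7 (below), were found for 36.2% of the 11980 genes tested. Id3, an inhibitor of E proteins, had 84.7 and 111 TPM in WT and 41.5 and 37.9 TPM in CTCF-KD, a difference of -1.27 ± 0.42 (SE, adjusted p = 0.610 by limma), and Gfi1, a zinc finger repressor, 18.5 and 23.8 against 5.11 and 10.1 TPM. Of 25 T-cell genes that the members are known to act on, 20 were above 0 and tested, 10 positive and 10 negative, with 0 called and a median of -0.04. Ccr7, a homing receptor, was at 0 in WT and seen in 2 and 3 CTCF-KD cells, and Lat, an adaptor of the T-cell receptor, had 786 and 542 TPM in WT and 1151 and 919 TPM in CTCF-KD. Cd3g, a chain of the receptor complex, had 2293 and 2922 TPM in WT and 1506 and 1772 TPM in CTCF-KD, and its kinase Lck 1487 and 1687 against 1206 and 960 TPM. Cd8a, Cd8b1, Rag1, Rag2 and S1pr1 were listed at 0, and Cd4 was seen in 4 cells.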

How the data were processed

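Single EL4 cells were sequenced from 4 cultures. Per the study's methods, the authors mapped reads to GRCm38 (STAR), used those with a unique position for gene counts (HTSeq) and deposited TPM. The methods state that wells holding a pair of cells were discarded, and no doublet caller was run here. All 504524 values above 0 gave whole reads, within 0.001, when divided by the TPM of 1 read, but 1336 genes with a value in 1 cell only come out whole by construction. These reads served for depth and for thinning to 80000 reads per cell. Groups came from the sample titles. The members and lists were chosen with earlier results of these data known.

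Culture values, log2(mean TPM + 1), were compared with limma 3.58.1 (R 4.3.3, eBayes with a trend) and Benjamini-Hochberg adjustment over all genes tested. A fold change on this scale understates the change of low genes. CV was taken over log2(TPM + 1) for genes with a mean above 1. Detection was compared by an exact permutation test over cultures. Replicate numbers mark an experiment in the study's methods, and same-numbered cultures deviated together (r = 0.275 across 7843 genes, which are not independent replicates). Members were named in full, and from each list the 2 genes of highest and lowest limma statistic. Gene positions came from GENCODE M21. Scripts were tested on simulated data. One marker gene is not reported here.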

Additional observations from a re-analysis of the deposited data

Results flagged for a closer look

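The 2 experiments moved in opposite directions for 4 members and for Ctcf in at least 1 quantity, and these differences between experiments were not tested. The log2 change of Bcl11b was -0.996 in experiment 1 and 0.41 in experiment 2, where 1 cell of 41591 reads decided the sign. That of Ctcf was -1.85 in experiment 1 and 0.27 in experiment 2. The CV difference of Gata3 was 0.144 in experiment 1 and -0.0039 in experiment 2. The CV difference of Runx1 was 0.116 in experiment 1 and -0.0515 in experiment 2. The share of cells with a read differed by -8.33 percentage points in experiment 1 and 0.725 in experiment 2 for Runx1, and by -8.33 and 3.99 for Notch1.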

How the results depend on the processing

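Under the alternatives, 100 values of the log2 change of the 9 members tested kept their sign and 7 reversed, none of them past the threshold. Leaving out a culture leaves 1 in its condition, which limma assumes to vary like the others. Over these the change ran from -0.84 (without WT2) to 0.20 (without WT1) for Gata3, from -1.61 (without CTCFKD2) to 1.02 (without CTCFKD1) for Bcl11b, which was 0.32 without WT2, from -0.40 (without WT1) to 0.98 (without WT2) for Ets1, which was -0.11 without CTCFKD2, and from -0.10 to 0.0015 for Notch1. With log2(TPM + 1) averaged over cells Ikzf1 became 0.26, and 44 genes were called higher and 2 lower, against 0 and 0. For the CV of cultures, 2 genes were called higher and 148 lower. These became 1 and 5 by SD, 0 and 1 with a pseudocount of 0.1, 4 and 323 with a pseudocount of 10, 8 and 830 with the replicate block, and 4 and 507 without the cell of fewest reads (chosen after seeing the data). Leaving out a culture gave 0 to 3 higher and 0 to 380 lower, with 0 lower without CTCFKD1 or CTCFKD2, 380 without WT1 and 257 without WT2. The replicate block changed the call of Ets1 and of no other member. By SD the difference was 0.28 for Lef1, -0.0461 for Bcl11b and -0.0585 for Runx1. The CV difference ran from -0.0132 (without WT1) to 0.0779 for Runx1, which was -0.0060 without CTCFKD1, and from -0.0175 (without CTCFKD1) to 0.0728 for Tox, which was -0.0033 without WT2. By the CV rule 602 of 7843 genes increased and 890 decreased, 1050 and 1032 by SD, and 857 and 1043 of 7126 with a mean above 1 in each condition. The rule called 1 member increased and 0 decreased, 2 and 2 by SD, and 2 increased with a mean above 1 required in each condition, where Gata3 was added. The cause of these shifts was not tested. Shares of cells with a read are limited by depth, lowest in CTCFKD2.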
